A study of Mus musculus with 12 samples.

Results

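The genes Pou5f1 (which encodes Oct4), Sox2, Klf4 and Myc (c-Myc) were followed through 12 expression arrays of mouse cells. They are the 4 genes that the labels name as the factors delivered by retrovirus, out of 19938 genes measured here by a probe set that carries a single gene symbol. Each of the 4 has exactly 1 such probe set: 10444853 for Pou5f1, 10491477 for Sox2, 10513008 for Klf4 and 10424400 for Myc. A level is the log2 of the deposited intensity, so a difference of 1 stands for a factor of 2 in intensity. Levels of different genes were not compared with each other, because probe sets differ in brightness.

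Together these factors can return a differentiated cell to pluripotency. Oct4, a POU-domain protein, and Sox2, a high-mobility-group protein, bind side by side on enhancers of pluripotency genes, among them Nanog, Fgf4, Utf1 and their own genes. Klf4 is a zinc finger protein that binds CACCC-like sites and acts on epithelial and growth control genes, and Myc pairs with Max at E-box sites and raises genes of ribosome production and metabolism. Sox2, unlike Pou5f1, is also a gene of neural stem cells and their relatives, so brain cells can carry their own Sox2 transcripts before any factor is delivered. In embryonic stem cells and in reprogrammed cells the retroviral copies are usually silenced while the cells' own Pou5f1 and Sox2 become active.

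The study followed astrocytes on the way to induced pluripotent stem cells (iPSCs) in 5 groups. Astrocytes (3 arrays) were taken at postnatal day 3 from the cortex of mice with green fluorescent protein (GFP) as a reporter of Sox1 (Sox1+/-), a gene of early neural cells. They grew in DMEM/F12 with 10% serum and were sorted as GFP-negative before retroviruses with Oct4, Klf4, Sox2 and c-Myc were added. Day 6 cells (3 arrays) were the GFP-positive cells sorted 6 days into reprogramming, in embryonic stem cell medium with 15% serum and leukaemia inhibitory factor (LIF) at 1000 U/ml. Neural stem cells (2 arrays) came from the telencephalon of Sox1-GFP embryos of day 12.5 to 14.5 and grew with bFGF and EGF at 20 ng/ml each. Astrocyte iPSCs (2 arrays), also with Sox1-GFP, and MEF iPSCs (2 arrays), a line made from mouse embryonic fibroblasts, grew on growth-arrested fibroblast feeders with 15% serum or serum replacement and LIF at 1500 U/ml. The MEF iPSCs were 1 line, named iPS-MEF-Ng-20D-17, and carry a Nanog-GFP-IRES-Puro reporter. Unsorted or GFP-negative cells of day 6 were not analysed here, so change within cells and choice of cells by the sort cannot be told apart.

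The arrays of each group were alike, with Pearson's r across probe sets of 0.992 to 0.996 within groups. The summed intensity of 12 astrocyte markers ran from 30729 to 35258 in astrocytes and from 2416 to 2526 in day 6 cells. For 10 pluripotent cell markers the sum ran from 591 to 720 in astrocytes, from 1393 to 1448 in day 6 cells, and from 15506 to 18359 in astrocyte iPSCs. Among them Sall4 went from 6.49 in astrocytes to 9.27 in day 6 cells (log2 group means), and Nanog from 6.62 to 7.96. The other markers of that list rose by less than 1 on the log2 scale from astrocytes to day 6 cells. The 11 markers of neural stem cells summed to between 20508 and 21913 in neural stem cells, but also to between 15477 and 17911 in astrocytes, and to between 2373 and 2452 in day 6 cells. The labelled types therefore carried their markers, while the day 6 cells, chosen by a neural reporter, had low sums for astrocyte and neural stem cell markers alike. The neural stem cell list was mixed gene by gene. Against neural stem cells, Nes, Fabp7, Nr2e1, Msi1, Olig2, Egfr and Rfx4 were lower at day 6 by more than 1 on the log2 scale. Pax6 (8.51 against 7.96), Sox1 (8.40 against 8.26) and Prom1 (8.14 against 8.17) were not, nor was Hes5 (7.58 against 8.34). Neural stem cell arrays also carried neuronal genes. Of 9 neuron markers all but Stmn2 (10.90 against 12.44) read higher there than in astrocytes, with Dcx at 9.40 against 5.45. In such bulk samples, fewer cells of a type and less RNA per cell cannot be told apart.

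The 250 bases before the transcription start are shown for Pou5f1, Sox2 and Klf4 and for Nanog, the gene whose level followed Pou5f1 most closely here. They come from a set of RefSeq promoter stretches on build GRCm38.p6. The set as used here held an entry for 3 of the 4 delivered genes, so Myc is named only. Capitals mark matches on either strand to ATGCAAA (the first 7 letters of the octamer bound by POU proteins), ACAATG (SOX proteins), CACGTG (the E-box of Myc and Max) and CACCC (KLF proteins).
Pou5f1, chr17:35505782-35506031, plus strand: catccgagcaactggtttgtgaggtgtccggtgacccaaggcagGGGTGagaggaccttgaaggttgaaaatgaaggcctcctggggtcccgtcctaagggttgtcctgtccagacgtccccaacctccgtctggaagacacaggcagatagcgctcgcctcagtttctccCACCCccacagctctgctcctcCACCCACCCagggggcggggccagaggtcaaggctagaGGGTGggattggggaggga
Sox2, chr3:34649745-34649994, plus strand: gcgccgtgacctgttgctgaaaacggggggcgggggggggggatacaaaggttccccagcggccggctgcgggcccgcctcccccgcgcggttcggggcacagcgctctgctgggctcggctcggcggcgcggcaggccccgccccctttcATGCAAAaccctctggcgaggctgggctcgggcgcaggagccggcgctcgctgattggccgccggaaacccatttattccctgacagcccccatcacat
Klf4, chr4:55532476-55532725, minus strand: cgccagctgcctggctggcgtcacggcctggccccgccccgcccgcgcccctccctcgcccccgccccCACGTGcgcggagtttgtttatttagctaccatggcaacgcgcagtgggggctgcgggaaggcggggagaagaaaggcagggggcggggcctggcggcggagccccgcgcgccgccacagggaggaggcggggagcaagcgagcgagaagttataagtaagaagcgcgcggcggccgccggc
Nanog, chr6:122707239-122707488, plus strand: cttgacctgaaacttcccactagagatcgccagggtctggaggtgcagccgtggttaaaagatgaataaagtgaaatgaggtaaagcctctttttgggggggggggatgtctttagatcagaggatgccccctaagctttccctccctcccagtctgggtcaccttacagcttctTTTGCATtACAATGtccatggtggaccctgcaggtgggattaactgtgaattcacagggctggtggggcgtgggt
The Pou5f1 stretch holds 5 CACCC matches, which begin 206, 79, 57, 53 and 19 bases before the start, and the adjoining matches at 57 and 53 share a base. The Sox2 stretch holds 1 POU match at 99 bases, and the Klf4 stretch 1 E-box at 182 bases. In the Nanog stretch a POU match at 75 bases and a SOX match at 67 bases stand next to each other. Among 19826 RefSeq stretches of the same length, 4.35% hold the POU letters, 12% the SOX letters, 5.57% the E-box and 48.9% CACCC. POU and SOX letters within 14 bases of each other occur in 34 of them, or 0.171%. The array data do not measure binding, and such matches describe the letters only.

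Pou5f1 had low, middle and high levels, and the day 6 cells held the middle one. The astrocyte arrays read 5.33, 5.47 and 6.07 (mean 5.63 ± 0.39, SD, n = 3), and the neural stem cell arrays 5.54 and 5.40 (5.47 ± 0.10, n = 2). Day 6 cells read 7.40, 7.41 and 7.65 (7.49 ± 0.14, n = 3). The 3 day 6 arrays agreed closely and lay above every astrocyte and neural stem cell array. In the iPSCs the readings were 11.94 and 11.96 from astrocytes (11.95 ± 0.01, n = 2) and 12 and 11.92 from MEFs (11.96 ± 0.06, n = 2).

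As linear intensity, Pou5f1 stood at 40.3 to 67.2 in astrocytes, 169 to 201 in day 6 cells and 3869 to 4097 over the 4 iPSC arrays. The rise from astrocytes to day 6 cells was 1.86 ± 0.16 on the log2 scale (SE; limma adjusted p = 9.84e-07), and that from day 6 cells to astrocyte iPSCs was 4.47 ± 0.17 (adjusted p = 1.1e-08). The astrocyte intensities lay under the array medians (97.9 to 104.9), where a constant in the values would shrink a difference: with 16 subtracted first, the astrocyte to day 6 difference was 2.31. Without the third astrocyte array, the brightest of its group for this gene, and with nothing subtracted, that difference was 2.08. Astrocytes and neural stem cells did not differ beyond their spread (-0.16 ± 0.17, adjusted p = 0.535, 95% interval -0.54 to 0.23), nor did the iPSC groups (-0.01 ± 0.19, adjusted p = 0.996, interval -0.43 to 0.41). RefSeq lists Pou5f1-related pseudogenes, and whether the probe set also detects them or retroviral Oct4 RNA was not tested. The same question about retroviral RNA applies to Sox2, Klf4 and Myc.

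**Figure D1:**
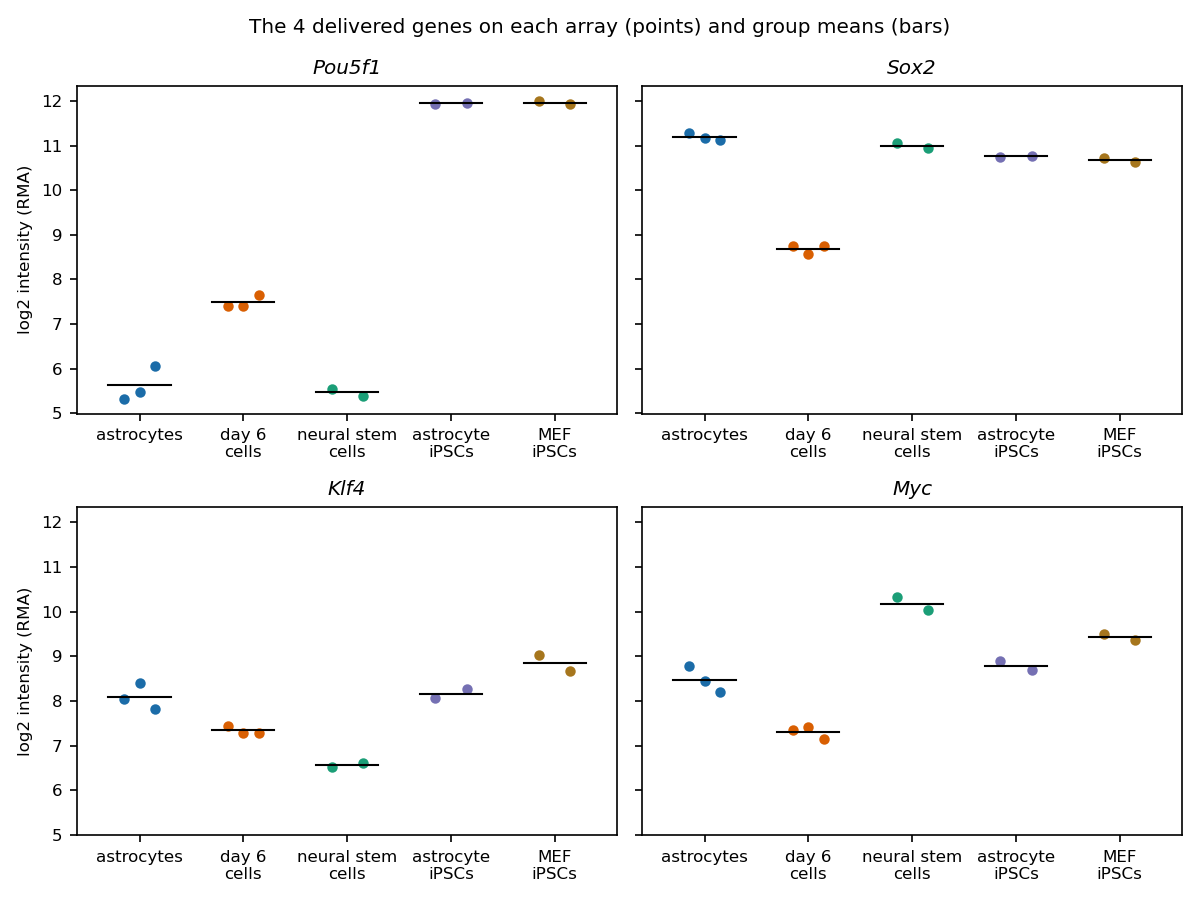
Log2 intensity of Pou5f1, Sox2, Klf4 and Myc in each of the 12 arrays (points) with the mean of each of the 5 groups (bars); all panels share one vertical axis, on which levels of different genes are not comparable. Day 6 cells hold a middle level of Pou5f1 (7.49) and the lowest levels of Sox2 (8.69) and Myc (7.30).

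Sox2 had an almost even level in 4 of the groups and was far lower in the day 6 cells. Astrocytes read 11.28, 11.17 and 11.12 (11.19 ± 0.08, SD, n = 3), neural stem cells 11.05 and 10.95 (11.00 ± 0.07, n = 2), astrocyte iPSCs 10.75 and 10.77 (10.76 ± 0.01, n = 2) and MEF iPSCs 10.71 and 10.64 (10.68 ± 0.05, n = 2). Day 6 cells read 8.76, 8.56 and 8.75 (8.69 ± 0.11, n = 3). No day 6 array came near any other array, and the remaining groups followed each other closely without overlapping. The log2 difference of Sox2 between day 6 cells and astrocytes was -2.50 ± 0.07 (limma adjusted p = 2.12e-10), a 5.65-fold difference in intensity. Against neural stem cells the difference was -2.31 ± 0.08 (adjusted p = 3.14e-09).

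From day 6 cells to iPSCs, Sox2 was higher by 2.07 ± 0.08 in astrocyte iPSCs (adjusted p = 1.05e-08) and by 1.99 ± 0.08 in MEF iPSCs (adjusted p = 1.63e-08). Astrocytes and neural stem cells, next to each other in the order, differed by -0.19 ± 0.08 (adjusted p = 0.0766), and the iPSC groups by 0.08 ± 0.09 (adjusted p = 0.823, 95% interval -0.11 to 0.27). The iPSC levels lay slightly under the astrocyte level, at -0.43 ± 0.08 (adjusted p = 0.000668) and -0.51 ± 0.08 (adjusted p = 0.00018), within the limit of 1 on the log2 scale that a call must reach. With cyclic loess between arrays, astrocytes stood higher, and the differences from them were -0.45 for neural stem cells, -0.77 for astrocyte iPSCs and -0.82 for MEF iPSCs, none of them called. Of the 4 genes, Sox2 had the largest fall from astrocytes to day 6 cells.

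Klf4 was highest in MEF iPSCs and lowest in neural stem cells, with day 6 cells below astrocytes. Its arrays read 8.05, 8.41 and 7.82 in astrocytes (8.09 ± 0.30, SD, n = 3) and 7.43, 7.29 and 7.29 in day 6 cells (7.34 ± 0.08, n = 3). Neural stem cells read 6.53 and 6.62 (6.57 ± 0.06, n = 2). Each of these 3 groups lay apart from the others, in descending order. Astrocyte iPSCs read 8.07 and 8.26 (8.16 ± 0.14, n = 2), inside the astrocyte range, and MEF iPSCs 9.03 and 8.68 (8.85 ± 0.25, n = 2), above every other array.

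The difference of Klf4 between day 6 cells and astrocytes was -0.75 ± 0.14 (limma adjusted p = 0.000627), too small for a call. Against day 6 cells, Klf4 was called higher in MEF iPSCs (1.52 ± 0.15, adjusted p = 2e-05) and measured 0.82 ± 0.15 above them in astrocyte iPSCs, which was not called (adjusted p = 0.00172). Neural stem cells had called lower Klf4 than astrocytes (-1.52 ± 0.15, adjusted p = 7.48e-06). Astrocyte iPSCs and astrocytes did not differ beyond their spread (0.07 ± 0.15, adjusted p = 0.786, 95% interval -0.27 to 0.41). The sign of that last value turns with single arrays left out.

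Myc was highest in neural stem cells and lowest in day 6 cells. Neural stem cells read 10.32 and 10.04 (10.18 ± 0.20, SD, n = 2), and day 6 cells 7.35, 7.42 and 7.14 (7.30 ± 0.14, n = 3). Between these ends lay astrocytes at 8.78, 8.45 and 8.21 (8.48 ± 0.28, n = 3), astrocyte iPSCs at 8.89 and 8.69 (8.79 ± 0.14, n = 2) and MEF iPSCs at 9.50 and 9.37 (9.43 ± 0.10, n = 2). Astrocytes and astrocyte iPSCs overlapped, and no other neighbours in this order did. The fall from astrocytes to day 6 cells was 1.18 ± 0.14 (-1.18; limma adjusted p = 1.59e-05). Against neural stem cells the day 6 level was -2.87 ± 0.15 (adjusted p = 7e-08), a 7.33-fold difference in intensity.

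In iPSCs, Myc was higher than in day 6 cells by 1.49 ± 0.15 with astrocyte origin (adjusted p = 2.03e-05) and by 2.13 ± 0.15 with MEF origin (adjusted p = 1.37e-06). MEF iPSCs against astrocytes gave 0.95 ± 0.15 (adjusted p = 0.000214), just under the limit of 1. That value was 1.10 without the first astrocyte array and 1.02 without the second MEF iPSC array, both past the limit.

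Counted over comparisons, members were called as follows, beside the share of all 19938 genes called in the same comparison. A call takes a limma adjusted p under 0.05 and an absolute log2 difference of at least 1. Between day 6 cells and astrocytes 3 of 4 were called (1 higher, 2 lower), where 16.9% of all genes were. Between day 6 cells and neural stem cells the same 3 genes were called in the same directions, beside 8.88% of genes. Both comparisons hold the same day 6 arrays, so they are not independent of each other.

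Both iPSC groups against day 6 cells had called members in the upward direction only. For astrocyte iPSCs they were Pou5f1, Sox2 and Myc, and 6.11% of genes were called. For MEF iPSCs they were all 4, and 6.11% of genes were called there too. The iPSC arrays also carried fibroblast and feeder markers, whose 12 genes summed to between 4195 and 7297 in astrocyte iPSCs and between 3539 and 3765 in MEF iPSCs, against 1544 to 1760 in day 6 cells. In astrocytes the same sum was 5835 to 6580, so the sum alone does not set the groups grown on feeders apart. Gene by gene the list was mixed. Thy1 (11.79 against 8.37) and Pdgfrb (9.30 against 7.68) were higher in astrocytes than in astrocyte iPSCs. Dcn (7.39 against 10.87), Postn (6.62 against 8.26) and Lum (4.80 against 7.99) were lower in astrocytes. Of these 12 markers, 9 were higher than in day 6 cells in astrocyte iPSCs, and 6 were higher and 1 lower in MEF iPSCs; on a scale with no 0, the dimmest was Fap at 5.25 and 5.09 and the brightest Dcn at 10.87 and 9.97. The part of feeder RNA in the Klf4 and Myc levels of the iPSCs was not tested.

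Astrocyte iPSCs against astrocytes had 1 of 4 called (Pou5f1, 6.33 ± 0.17), beside 20.8% of genes, and MEF iPSCs against astrocytes also 1 of 4 (Pou5f1, 6.33 ± 0.17), beside 20.1%. The starting fibroblasts of the MEF iPSCs were not analysed here, so this is no comparison of that line with its own origin. Against neural stem cells, astrocyte iPSCs had 3 of 4 called (Pou5f1 and Klf4 higher, Myc lower), beside 12.5% of genes, and MEF iPSCs 2 of 4 (Pou5f1 and Klf4 higher), beside 12.1%. Neural stem cells against astrocytes had 2 of 4 called, Klf4 lower and Myc higher, beside 14.6%.

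The iPSC groups compared with each other had 0 of 4 members called by limma, beside 0.742% of all genes. Without adjustment, 2 of 4 members had a limma p under 0.05, as did 3303 of 19938 genes. The same 2 had a limma adjusted p under 0.05 as well, and only the limit of 1 kept them from a call. Those 2 were Klf4, which read -0.69 ± 0.17 in astrocyte iPSCs minus MEF iPSCs (adjusted p = 0.0378, 95% interval -1.07 to -0.32), and Myc at -0.65 ± 0.17 (adjusted p = 0.048, interval -1.01 to -0.28). The arrays of the iPSC groups did not overlap for either gene. They did not overlap for Sox2 either, at 0.08 ± 0.09 (limma adjusted p = 0.823), so with 2 arrays a group this does not set Klf4 and Myc apart. The share of all genes without overlap was not counted. Of the 12 fibroblast and feeder markers 1, Lum, was called between these groups, higher in astrocyte iPSCs. Origin, reporter and line all differ between the groups and cannot be told apart.

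**Figure D2:**
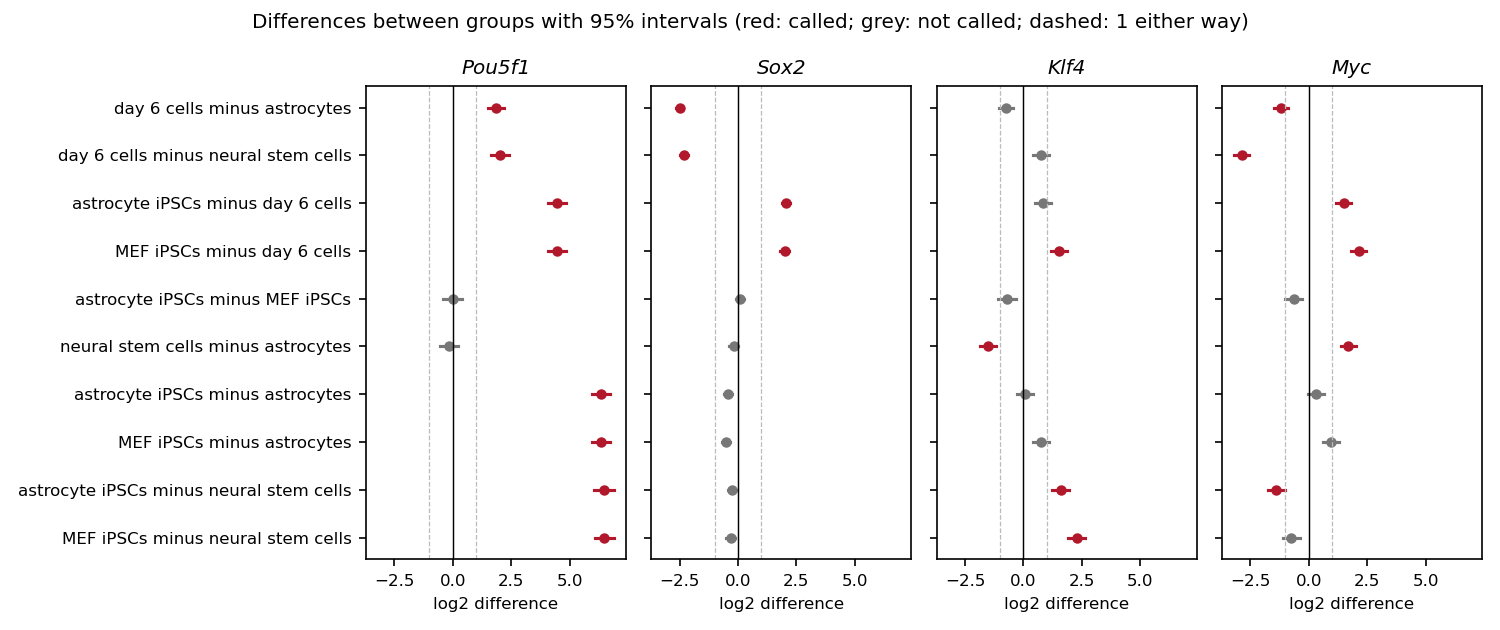
Log2 differences (horizontal axes) of the 4 genes in each of the 10 comparisons between groups, with 95% intervals from limma; red points are called, grey are not, and dashed lines mark 1 in either direction. Pou5f1 differences reach 6.49, while Sox2 differs by more than 1 only where day 6 cells are compared.

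Nanog and Fgf4 were, in day 6 cells against astrocytes, the called genes among those on which Oct4 and Sox2 act together. Of 6 measured enhancer targets, 2 were higher than in astrocytes and 0 lower, with a list median of 0.59 beside 0.04 over all genes. In that comparison 16.9% of all genes were called. Nanog, a homeodomain protein of the pluripotent state, read 6.71, 6.43 and 6.72 in astrocytes and 7.93, 7.72 and 8.24 in day 6 cells, a rise of 1.35 ± 0.13 (adjusted p = 3.01e-06). Fgf4, a growth factor whose enhancer is bound by Oct4 with Sox2, rose by 1.09 ± 0.14 (adjusted p = 2.74e-05), and its 3 day 6 arrays (8.14, 8.21 and 8.22) lay above all astrocyte arrays (6.95 to 7.20). Utf1, a chromatin-associated protein with such an enhancer, and Lefty1, a Nodal antagonist, were not called, at 0.17 ± 0.17 and -0.03 ± 0.13. Fbxo15 was not called either, at 0.86 ± 0.12 (adjusted p = 5.45e-05), just under the limit of 1.

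In both kinds of iPSC all 6 targets were higher than in day 6 cells, with a median of 3.20 in astrocyte iPSCs beside -0.03 over all genes. Of all genes, 6.11% were called in each of these comparisons. Nanog gained 3.31 ± 0.14 and Utf1 4.95 ± 0.19 in astrocyte iPSCs (adjusted p = 2.55e-08 and 8.19e-09). Between the iPSC groups 3 targets were called, beside 0.742% of all genes. Zfp42 (Rex1), a zinc finger protein of pluripotent cells, differed by 1.96 ± 0.16 and Fbxo15 by 1.20 ± 0.14 in favour of astrocyte iPSCs, and Lefty1 by -1.02 ± 0.16.

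The wider pluripotency network held 23 measured genes that include some of these targets. It had 8 higher and 2 lower at day 6 than in astrocytes (median 0.32 beside 0.04, with 16.9% of all genes called). Nr0b1 (Dax1), a nuclear receptor that binds Oct4, was the extreme: it rose by 5.11 ± 0.12 (adjusted p = 5.5e-11), and its day 6 level of 10.53 ± 0.07 (SD, n = 3) stood beside 10.15 ± 0.39 (n = 2) in astrocyte iPSCs. Tdgf1 (Cripto), a Nodal co-receptor, was not called at 0.50 ± 0.12, nor Dppa5a, an RNA-binding protein of pluripotent cells, at 0.08 ± 0.14. From day 6 cells to astrocyte iPSCs, 19 of the 23 were higher and 0 lower (median 2.28), with Tdgf1 up by 5.66 ± 0.13 and Dppa5a by 5.32 ± 0.15. In MEF iPSCs 20 were higher and 0 lower (median 1.81). The medians over all genes were -0.03 and -0.02 in these comparisons with astrocyte and MEF iPSCs, with 6.11% called in each.

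Partners and targets of Sox2 in neural cells included many that were lower at day 6. Of 17 measured, 8 fell and 1 rose against astrocytes, with a median of -0.94 beside 0.04 over all genes. The share of all genes called there was 16.9%. Fabp7, which binds fatty acids in radial glia, went from 13.11 ± 0.03 (SD, n = 3) to 7.43 ± 0.21 (n = 3), a fall of 5.69 ± 0.13 (-5.69). Olig2, a bHLH factor of oligodendrocyte and neural progenitors, fell by 4.29 ± 0.15 (-4.29), Nr2e1 (Tlx), an orphan receptor that maintains neural stem cells, by 3.33 ± 0.10 (-3.33), and Rfx4 by 2.22 ± 0.15 (-2.22); the largest adjusted p of these was 1.66e-07. The member that rose was Chd7, a chromatin remodeller (1.09 ± 0.11). Of the 12 astrocyte markers 10 also fell, as did 6 of the 11 neural stem cell markers. Fabp7, Olig2, Nr2e1 and Rfx4 belong both to the neural stem cell markers and to the Sox2 list, so those counts are not separate. The part of cell type in these differences was not tested.

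Of the 17 neural genes 0 were higher and 3 lower in astrocyte iPSCs than at day 6, while Sox2 was higher. The share of all genes called there was 6.11%. Levels in astrocyte iPSCs were mixed, with Vim, an intermediate filament protein, at 11.33 and Chd7 at 9.67 as group means, while Fabp7 stood at 6.50 ± 0.36 and Olig2 at 6.30 ± 0.07 (n = 2). Neural stem cells, with Sox2 at 11.00, had Fabp7 at 13.19 and Olig2 at 12.21. Of 19 other SOX genes measured, 1 was higher and 3 lower than in astrocytes at day 6, a share near the 16.9% of all genes called. Sox11 rose (2.51 ± 0.13), and Sox9 (-4.38 ± 0.12), Sox6 (-1.85 ± 0.09) and Sox4 were lower. Sox9 marks glial precursors and astrocytes, and Sox11 immature neurons. Sox1, whose locus carries the sorting reporter, was not called, at 8.40 ± 0.13 (n = 3) in the GFP-positive day 6 cells and 8.13 ± 0.14 (n = 3) in GFP-negative astrocytes (0.27 ± 0.09, adjusted p = 0.021). The level of GFP itself was not analysed here.

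**Figure D3:**
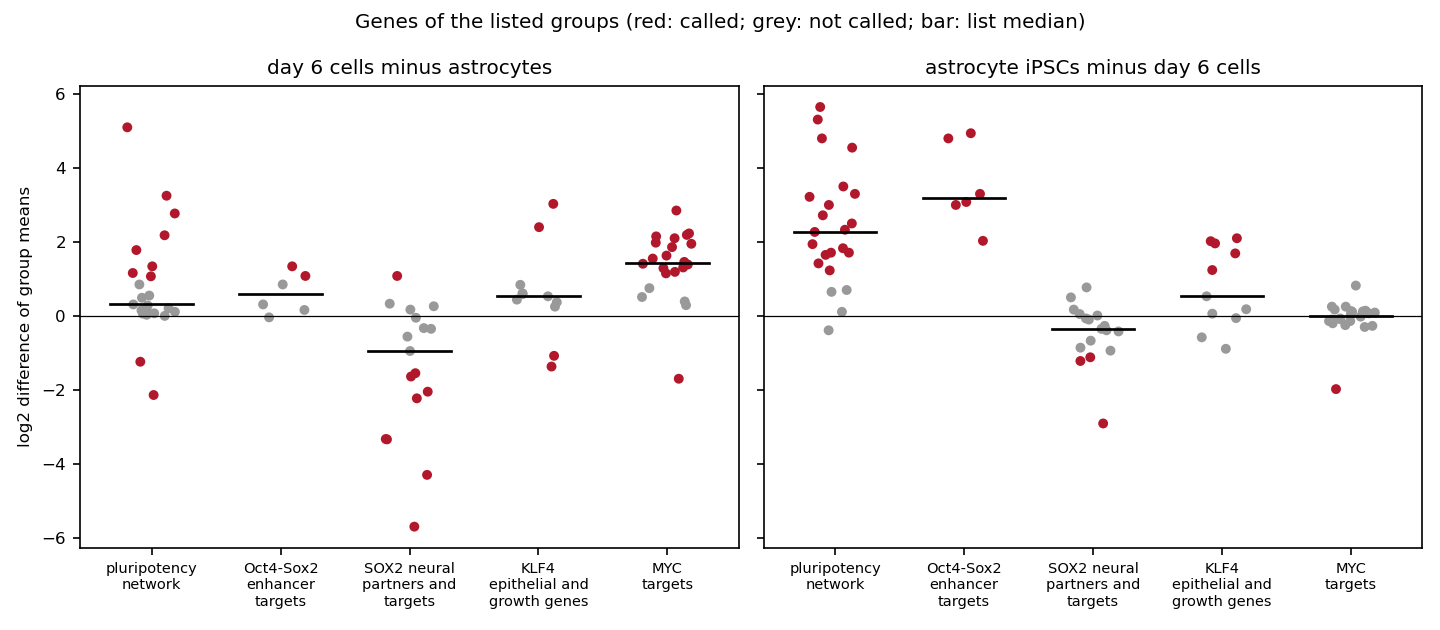
Log2 differences (vertical axis) of the genes in 5 groups linked to the delivered factors, for day 6 cells minus astrocytes (left) and astrocyte iPSCs minus day 6 cells (right); each point is a gene, red if called, and bars are list medians. MYC targets have a median of 1.44 on the left and 0.01 on the right, and Oct4-Sox2 enhancer targets 0.59 and 3.20.

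Targets of Myc were higher at day 6 than in astrocytes, while Myc was at its lowest. Of 22 measured targets, 17 were higher and 1 lower in day 6 cells than in astrocytes, and the median was 1.44 beside 0.04 over all genes. In the same comparison 16.9% of all genes were called. Dkc1, the pseudouridine synthase of ribosomal RNA, read 8.36, 8.33 and 7.85 in astrocytes and 10.98, 11.11 and 11.02 in day 6 cells, a rise of 2.86 ± 0.11 (adjusted p = 2.69e-09). Nolc1, a nucleolar chaperone, rose by 2.24 ± 0.09, and Nop56, a core protein of box C/D ribonucleoproteins, by 2.16 ± 0.10. The target that fell was Ccnd2, cyclin D2, by 1.69 ± 0.17 (-1.69).

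Neural stem cells, with the highest Myc, had 13 of the 22 targets higher than astrocytes and 0 lower (median 1.12). The median over all genes was -0.03 there, with 14.6% called. Between neural stem cells and day 6 cells, where Myc differed most, 0 targets were higher and 1 (Ccnd2) lower in day 6 cells. Their median was 0.37 beside 0.07 over all genes, of which 8.88% were called. From day 6 cells to astrocyte iPSCs, Myc gained 1.49 while 0 targets were higher and 1 lower. Their median was 0.01 beside -0.03 over all genes, of which 6.11% were called. That target median was -0.01 with arrays centred or scaled by cyclic loess. Cyclic loess lowered the count against astrocytes from 17 to 14 for day 6 cells and from 13 to 7 for neural stem cells. Many of these genes of ribosome production and growth are also acted on by other factors, whose part here was not tested.

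Mycn (N-Myc), the paralogue that can stand in for Myc, had another pattern. It read 6.75, 6.46 and 6.64 in astrocytes, 7.72, 7.60 and 7.74 in day 6 cells, 7.54 and 7.93 in neural stem cells, 9.94 and 10.03 in astrocyte iPSCs and 9.63 and 9.04 in MEF iPSCs. The day 6 arrays all lay above the astrocyte arrays and between the neural stem cell arrays, and the iPSCs were highest. Its rise from astrocytes to day 6 cells was 1.07 ± 0.15 (adjusted p = 6.07e-05), beside the fall of Myc, and it rose again by 2.30 ± 0.16 in astrocyte iPSCs (adjusted p = 1.16e-06). It was the only called gene among the 12 other measured members of the MYC family and MAX network at day 6 against astrocytes (list median 0.41). All genes together had a median of 0.04 there, with 16.9% called. Mxd4, which competes with Myc for Max, was lower in astrocyte iPSCs than in day 6 cells (-1.03 ± 0.12).

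Other genes known to replace a delivered factor also differed among themselves at day 6. Of 12 measured, 4 were higher than in astrocytes (Nr5a2, Klf5, Mycn and Nanog), 1 was lower (Klf2) and 7 were not called, with a median of 0.23. The median over all genes was 0.04, and 16.9% of all genes were called. Nr5a2, a nuclear receptor that can replace Oct4, read 6.23, 6.22 and 6.21 in astrocytes and 8.04, 7.99 and 8.0 in day 6 cells, a rise of 1.79 ± 0.08 (adjusted p = 7.26e-09). Unlike Pou5f1, it was not called higher in astrocyte iPSCs (0.12 ± 0.09, adjusted p = 0.39). Esrrb, a nuclear receptor that can replace Klf4, stayed at 5.85 ± 0.12 (SD, n = 3) in day 6 cells against 5.73 ± 0.13 (n = 3) in astrocytes and 9.36 ± 0.36 (n = 2) in astrocyte iPSCs.

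The KLF relatives that can replace Klf4 went in opposite directions. Klf2 fell by 1.23 ± 0.14 (-1.23) from astrocytes to day 6 cells (adjusted p = 1.1e-05), while Klf5 rose by 1.08 ± 0.10 (adjusted p = 3e-06). Klf2 then gained 1.84 ± 0.15 in astrocyte iPSCs (adjusted p = 3.94e-06), and Klf5 0.66 ± 0.12, which was not called. Over the 16 measured KLF relatives, day 6 cells had 2 higher (Klf5 and Klf8, the latter by 2.06 ± 0.13) and 3 lower (Klf2, Klf6 and Klf7) than astrocytes, beside 16.9% of all genes called, and their median was 0.19 beside 0.04. Sox3, which can replace Sox2, was not called at day 6, at 0.18 ± 0.09, and Mycl, the third Myc paralogue, read 0.35 ± 0.15. From day 6 cells to iPSCs, 6 of the 12 replacement genes were higher with astrocyte origin (Esrrb, Klf2, Mycn, Nanog, Lin28a and Tbx3). With MEF origin 7 were higher, Klf5 in addition, and 0 were lower in either, beside 6.11% of all genes called in each comparison.

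**Figure D4:**
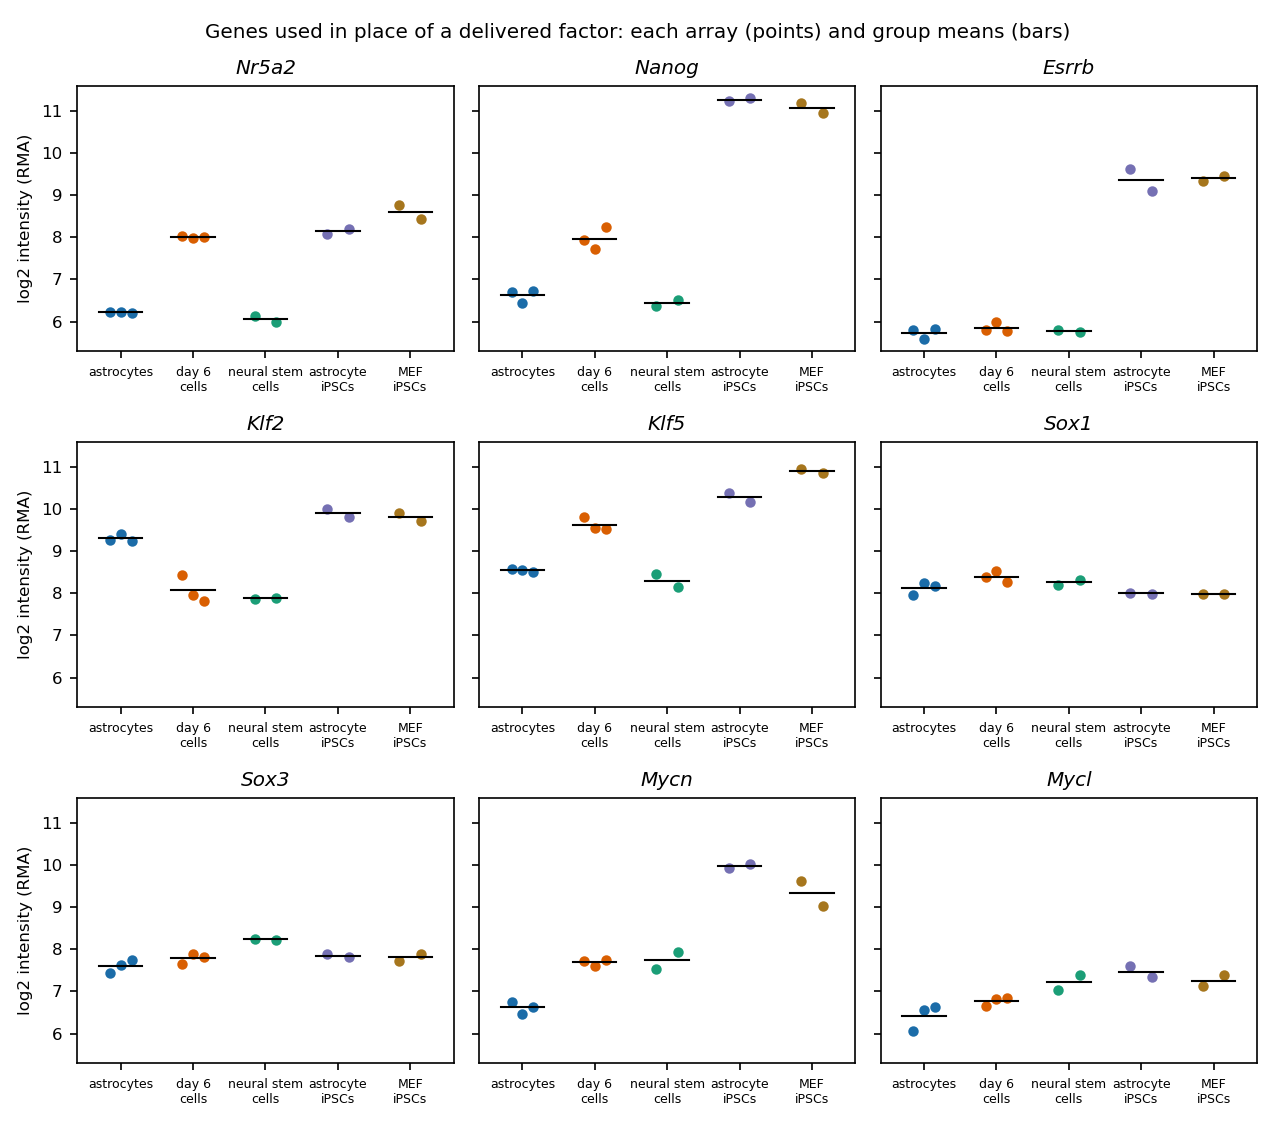
Log2 intensity of 9 genes that can take the place of a delivered factor, in each of the 12 arrays (points) with group means (bars). At day 6, Nr5a2 (8.01) and Klf5 (9.63) lie above the astrocyte arrays and Klf2 (8.07) below them, while Esrrb (5.85) is at its astrocyte level until the iPSC stage.

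Among epithelial and growth genes linked to Klf4, a pair of cell adhesion genes stood out at day 6. Of 11 measured, Epcam (3.04 ± 0.07) and Cdh1, E-cadherin (2.41 ± 0.10), were higher in day 6 cells than in astrocytes, and Cdkn1b and Tjp1 were lower (median 0.54). All genes together had a median of 0.04 there, with 16.9% called. Day 6 arrays of Cdh1 read 8.92, 8.87 and 8.58 against 6.38, 6.49 and 6.27 in astrocytes. Another 1.97 ± 0.11 was gained in astrocyte iPSCs, where 5 of the 11 were higher than at day 6 and 0 lower, beside 6.11% of all genes called.

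Genes upstream of Myc and Klf4, mostly of the LIF, Jak and Stat3 pathway and of Wnt signalling, were 2 higher and 6 lower of 15 at day 6 than in astrocytes, with a median of -0.48. The median over all genes was 0.04, and 16.9% of all genes were called. Osmr, the oncostatin M receptor, fell by 2.41 ± 0.18 (-2.41), Il6st (gp130), the shared signalling receptor for LIF, by 1.73 ± 0.09 (-1.73), and Socs3, a feedback inhibitor of Stat3, by 1.35 ± 0.19 (-1.35). The medium differs between these groups in serum and LIF, and that difference cannot be told apart from the group.

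Genes that silence retroviruses bear on how long delivered copies stay active. Of 18 measured, 7 were higher and 0 lower in day 6 cells than in astrocytes (median 0.79 beside 0.04, with 16.9% of all genes called), among them Trim28 (Kap1), a corepressor recruited to proviruses (1.45 ± 0.06), Setdb1, a histone methyltransferase that works with it (1.10 ± 0.09), and Uhrf1, a partner of maintenance methylation (2.17 ± 0.12). Neural stem cells also had 7 higher and 0 lower than astrocytes (median 0.92 beside -0.03), where 14.6% of all genes were called. The de novo methyltransferases were not called at day 6: Dnmt3a read -0.31 ± 0.13, Dnmt3b 0.74 ± 0.08 and Dnmt3l 0.14 ± 0.08. In astrocyte iPSCs these 3 were higher than in day 6 cells, by 2.20 ± 0.14, 3.77 ± 0.09 and 4.18 ± 0.09 in that order, as were Zfp809 and Zfp42. The state of the retroviral copies themselves was not measured by these probe sets in a way that could be separated from the cells' own genes.

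The genes whose levels followed each factor most closely were ranked by Pearson's r over the 12 arrays, among 6225 genes whose group means ranged over at least 1 on the log2 scale. Arrays of a group share cells and culture, so r is given as a description. Nanog was the most like Pou5f1 (r = 0.997), followed by Trim71, Apela, Zscan10 and Large2 (0.990 to 0.996), and Meis2 was the most opposite (-0.995). Trim71 (Lin41) read 6.82 in astrocytes, 7.61 in day 6 cells and 9.65 and 9.81 in the iPSC groups as group means, the order that Pou5f1 had.

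Sox2 was followed by Tnc (r = 0.984), Rimklb, Laptm4b, Mtss1 and Dab2ip, with Nt5e the most opposite (-0.994). Tnc, the matrix protein tenascin C, went from 11.43 in astrocytes to 5.99 in day 6 cells and 9.81 in astrocyte iPSCs, while Nt5e, the ectonucleotidase CD73, was highest at day 6 (8.71). Klf4 was followed by Rab27a (0.977), Stat6, Capg, Bcam and Anxa11, with Pde1b the most opposite (-0.973). For Myc they were Tpmt (0.978), Npl, Cntfr, Sqle and Basp1, with Gss at the other end (-0.974). Ranked over the 5 group means, 2, 3, 2 and 3 of these 5 genes were kept for Pou5f1, Sox2, Klf4 and Myc.

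The delivered genes followed one another to different degrees. Over the 12 arrays r was 0.76 between Sox2 and Myc, which shared their lowest level at day 6, and 0.64 between Pou5f1 and Klf4. The remaining pairs had r between -0.03 and 0.28.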

How the data were processed

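Each of 12 RNA samples was hybridised to an Affymetrix array of the type Mouse Gene 1.0 ST. The deposited values are linear intensities per probe set (20.2 to 15436, array medians 97.9 to 104.9). Per the submitters' processing notes the authors used RMA; no version is given in the sources used here. The plan had assumed log2 values, so log2 was taken here. A constant may have been added before deposit, which would shrink differences of dim genes. The design text calls the replicates biological, but nothing says that cultures or animals were separate, so a p-value here reflects only how these samples vary, which may be technical. The small number of arrays (2 or 3 a group) limits the precision.

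Of 28853 probe sets, 21789 carry 1 symbol, 1621 several and 5443 none. Where several served the same gene (999 of 19938 genes), the brightest on average stood for it. All arrays entered a single limma fit (version 3.58.1, R 4.3.3) of group means, with 7 residual degrees of freedom, and p was adjusted over all genes by Benjamini-Hochberg. The fit was tested on simulated data. A call takes an adjusted p under 0.05 and an absolute log2 difference of at least 1. SE and 95% intervals are limma's, and SD is over the arrays of a group.

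The named genes are the 4 members, up to 4 genes of each list with the widest range of group means, the called genes of the replacement list and the 5 genes most like each member. Other list genes were named after their values were seen. The members and lists were chosen with earlier results of these data known. Of 276 list entries, 263 were measured. Promoter letters were searched in RefSeq stretches of GRCm38.p6. Alternatives changed the scale (cyclic loess, median centring, 16 subtracted before log2), the genes (averaged probe sets, dim genes removed), the fit (trend and robust settings, a block for replicate number, the compared groups alone, each array left out) and the call (adjusted p under 0.01, any fold). Tables were made with pandas 2.3.3 and numpy 2.4.6 under Python 3.11.15, and figures with matplotlib 3.10.9.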

Additional observations from a re-analysis of the deposited data

How the results depend on the processing

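Over 11 kinds of alternative, 592 values of 40 differences of the 4 genes were obtained, and 572 kept both direction and call. Not every alternative could change a difference, so that count by itself is no measure of stability. The other call limits, dim genes removed, trend and robust settings and the compared groups alone can change only a call. The same holds for averaged probe sets, as each of the 4 genes has 1 probe set. No called difference was lost. With no fold limit 12 more differences count as called at unchanged values: Klf4 at -0.755 (day 6 cells minus astrocytes), 0.764 (day 6 cells minus neural stem cells), 0.824 (astrocyte iPSCs minus day 6 cells), -0.692 (astrocyte iPSCs minus MEF iPSCs) and 0.761 (MEF iPSCs minus astrocytes), Sox2 at -0.429 and -0.51 (astrocyte and MEF iPSCs minus astrocytes) and at -0.239 and -0.32 (the same minus neural stem cells), and Myc at -0.645 (astrocyte iPSCs minus MEF iPSCs), 0.953 (MEF iPSCs minus astrocytes) and -0.743 (MEF iPSCs minus neural stem cells). Myc in MEF iPSCs minus astrocytes ran from 0.82 to 1.10 with single arrays left out. The sign turned only for differences that were not called. Pou5f1 in astrocyte iPSCs minus MEF iPSCs ran from -0.049 to 0.034 (0.001 without astrocyte iPSC replicate 1, 0.034 without MEF iPSC replicate 1). Pou5f1 in neural stem cells minus astrocytes ran from -0.30 to 0.06 (0.064 without astrocytes replicate 3). Klf4 in astrocyte iPSCs minus astrocytes ran from -0.07 to 0.23 (-0.067 without astrocytes replicate 3, -0.027 without astrocyte iPSC replicate 2). The causes were not tested.

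With the replicate number as a block, the last of these was -0.01, and the block changed no call. The labels do not say whether a number marks a shared batch, and deviations of same-numbered samples correlated between -0.10 and 0.41, so the numbers were not taken as pairs. Subtracting 16 raised Pou5f1 in day 6 cells minus astrocytes to 2.31. Cyclic loess gave Sox2 -2.83 there. With no fold limit the genes called rose from 3360 to 9755 in day 6 cells against astrocytes and from 1771 to 7655 against neural stem cells, from 1218 to 5896 and 1219 to 5932 in astrocyte and MEF iPSCs against day 6 cells, from 148 to 1150 between iPSC groups, from 2907 to 9144 in neural stem cells against astrocytes, from 4154 to 10173 and 4011 to 10017 in the iPSCs against astrocytes, and from 2500 to 8441 and 2409 to 8251 against neural stem cells.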

Other observations

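Relatives of the delivered genes set neural stem cells apart from the other groups. Klf12, a repressor of the KLF family, read 10.52 and 10.32 in neural stem cells and between 7.06 and 8.63 on the other 10 arrays, and its difference from astrocytes was 3.10 ± 0.14 (limma adjusted p = 1.6e-08). Sox5, a SOX protein without a transactivation domain, was higher there than in astrocytes by 2.16 ± 0.11 (adjusted p = 3.13e-08), and Pou3f4 (Brn4), a neural POU protein, by 1.28 ± 0.12 (adjusted p = 4.66e-06). None of these 3 was called in day 6 cells against astrocytes, where they measured 0.28 ± 0.13, -0.50 ± 0.10 and -0.42 ± 0.11. Day 6 cells shared with neural stem cells a higher level of Sox11 than astrocytes (2.51 ± 0.13 and 3.30 ± 0.15). The neural stem cell arrays also carried neuron markers, such as Dcx (9.40 against 5.45 in astrocytes). The part of neurons in these differences was not tested.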
